A study of Mus musculus with 48 samples.

Results

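The daily course of gene expression in the mouse pars tuberalis under chronic long days was read from 12 of the 48 expression arrays of the series, those whose source label names 2 weeks of long days. They cover 6 times of day, ZT0, ZT4, ZT8, ZT12, ZT16 and ZT20, with 2 arrays each, where ZT counts hours after lights-on. All were made from male CBA/N mice, 8 weeks old, which had been kept on short days (8 h of light) before they were moved to long days of 16 h of light, so that lights went off at ZT16. The other arrays are 12 from mice of the same strain, sex and age that stayed on short days, used here for comparison, and 24 from 6-week-old mice of that strain and sex on a first long day, 12 made long by earlier lights-on and 12 by later darkness, each shifted by 8 h. Those 24 entered only the estimate of spread and the choice of 1 probe set per gene. Tissue was punched from frozen brain slices and RNA of 25 mice was pooled for each array. Replicates come from a repeat of the experiment, according to the series' design notes, and no label adds to this. The p-values rest only on how far the 2 arrays of a group lie apart, pooled over all 24 groups of the series and moderated across genes.

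The pars tuberalis wraps the pituitary stalk and carries a dense population of melatonin receptors, through which it reads the length of the night. Its thyrotroph cells run a circadian clock in which ARNTL, paired with CLOCK or NPAS2, switches on genes of the Per, Cry and Nr1d families, whose products repress that drive in turn. Long days raise thyrotropin from these cells, which acts on the neighbouring hypothalamus.

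The markers of the labelled tissue were bright on every long-day array. Tshb, the beta subunit of thyrotropin, lay between log2 13.77 and 14.43, and Cga, its alpha subunit, between 13.38 and 14.11. The summed level of 6 pars tuberalis thyrotroph markers, the log2 of their summed linear signals, ran from 15.44 in ZT20 replicate 1 to 15.87 in ZT4 replicate 2. Signal of the neighbouring pars distalis was uneven: Prl, which encodes prolactin, stood at 10.50 in ZT4 replicate 2, 10.46 in ZT8 replicate 1 and 12.24 in ZT12 replicate 2, and Gh, growth hormone, at 11.32 in that last array, whereas the 9 other arrays held Prl at 5.88 to 8.93. With all arrays, none of the 9 measured pars distalis markers passed the test for variation over the day (limma, with 2 at an unadjusted p under 0.05). In whole tissue, fewer cells of a type and less RNA per cell cannot be told apart.

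Both second replicates of the dark phase, here ZT16, at lights-off, and ZT20, went against their labels. Over 89 genes chosen because they varied under short days, in short-day arrays alone, the deviations from the long-day mean correlated between the 2 replicates with r = 0.937 (ZT0), 0.861 (ZT4), 0.779 (ZT8) and 0.799 (ZT12). The same correlation was 0.125 at ZT16 and 0.301 at ZT20. Across labels it was 0.864 between ZT16 replicate 1 and the array labelled ZT20 replicate 2, and 0.779 between ZT20 replicate 1 and the array labelled ZT16 replicate 2. With the clock genes taken out, 74 genes gave 0.838 and 0.796 across labels and 0.152 and 0.343 within them. These correlations are across genes, which are not independent, and all share the same subtracted mean.

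A second reading used the phase of 15 clock genes. Matched to the short-day course in clock time, 10 arrays of the long-day group read -3.80 h on average from the clock time on their labels (SD 0.75, range -4.89 to -2.73). The array labelled ZT16 replicate 2 stood at 0.07 h and the array labelled ZT20 replicate 2 at -8.29 h, the former later and the latter earlier than all of the other 10. Dbp, a clock output factor, shows the pattern in a single gene: it read 12.35 in ZT16 replicate 1 and 12.36 in the array labelled ZT20 replicate 2, against 11.34 in the array labelled ZT16 replicate 2 and 11.00 in ZT20 replicate 1. Whether these labels were exchanged was not tested. Results below keep the labels as deposited. Leaving out both arrays moved the F test or the difference in course of some named genes across the threshold. Where such a gene is described below, the value without them or with their labels exchanged is given beside the result. Without both, ZT16 and ZT20 hold 1 array each, and the gap between their replicates leaves the estimate of spread. For genes with such a gap, a smaller p-value follows in part from which arrays were left out. Counts over gene lists are given with all arrays as labelled. In the pars distalis, astrocyte, oligodendrocyte, hypothalamic neuron and folding lists, among others, further members passed the F test without both.

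**Figure D1:**
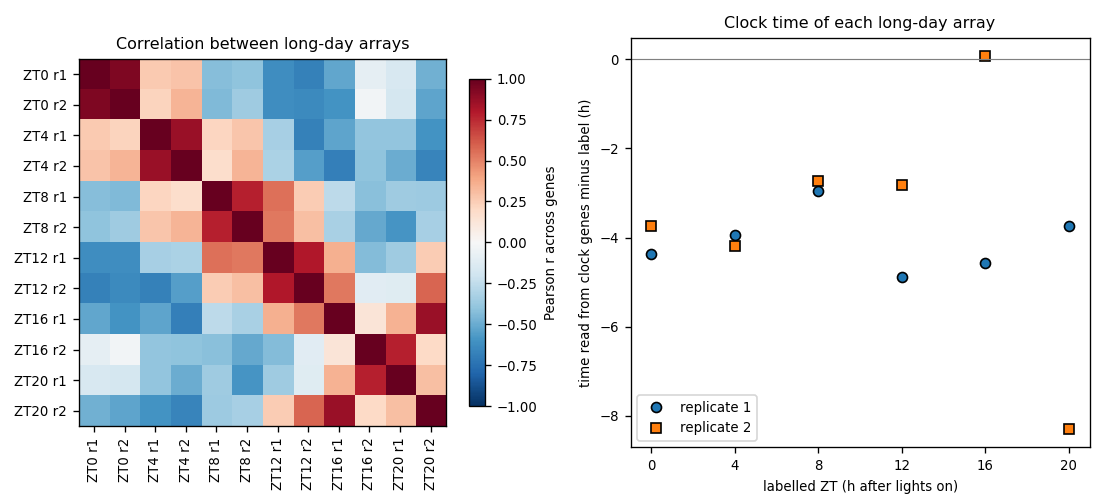
Left, a heat map of the correlation (Pearson r, colour scale) between the 12 long-day arrays in their deviations from the long-day mean over 89 genes; right, the clock time read from 15 clock genes minus the labelled clock time (h) for each array. ZT16 replicate 1 pairs with the array labelled ZT20 replicate 2 (r = 0.864), and both arrays labelled replicate 2 at these times, at 0.07 h and -8.29 h, fall outside the range of the other 10.

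The first comparison asks which genes varied between the 6 times of a long day. Of 18194 genes, 296 passed the F test between the 6 means (limma, adjusted p under 0.05), which is 1.63% of those tested, and 46 of them spanned at least 2-fold between their highest and lowest means. A cosine with a period of 24 h passed in 468 genes (2.57%), and 267 genes passed both. The genes with the smallest p-values included immediate early genes highest at lights-on (Btg2, Gadd45b, Junb) and clock genes with a smooth course (Per2, Nr1d1, Cry1). The range of means had a median of 0.61 among the genes that passed and 0.21 over all genes. Of the 296 genes, 191 also passed the same test under short days, which 1621 of all 18194 genes passed in the same fit. Without the arrays labelled ZT16 and ZT20 replicate 2 the counts were 407 and 610, with 250 and 366 genes shared with the full set. Without the 3 arrays that held Gh or Prl above 10, which leaves 1 array each at ZT4, ZT8 and ZT12, they fell to 104 and 146. With the spread taken from long-day arrays alone they were 83 and 179. That spread includes the ZT16 and ZT20 pairs, in which replicate 2 went against its label, so these counts do not reflect the choice of spread alone.

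Of the 296 genes, 77 were highest at ZT4, 60 at ZT0, 49 at ZT8, 43 at ZT20, 39 at ZT12 and 28 at ZT16. The share highest at ZT4, 26%, was close to the 27.1% over all genes, as was that at ZT8 (16.6% and 17%). At ZT0 it was 20.3% against 13.2%, at ZT20 14.5% against 13.2%, at ZT12 13.2% against 16.7% and at ZT16 9.46% against 12.9%, and none of these differences was tested. The peaks of the 468 cosine genes lay within 2 h of ZT8 in 107 genes, of ZT4 in 91, of ZT16 in 78, of ZT20 in 77, of ZT0 in 71 and of ZT12 in 44. Peak times thus covered the whole cycle.

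Promoter sequence is shown for 4 genes that the results turn on, 3 of the clock and 1 of the lights-on group, because each window holds copies of a motif known to bind a clock or cAMP factor. The windows are from RefSeq on GRCm38.p6, read 5′ to 3′ on the minus strand of the chromosome, on which all 4 genes lie, and they end ahead of the annotated start. Capitals mark the motif: the E-box CACGTG, to which ARNTL binds with its partners, in Ciart (chr3:95882235-95882374) and Cry1 (chr10:85185077-85185144), the D-box TTATGTAA, to which DBP and TEF bind, in Per3 (chr4:151044786-151044900), and the full cAMP response element TGACGTCA in Btg2 (chr1:134079284-134079351).
Ciart: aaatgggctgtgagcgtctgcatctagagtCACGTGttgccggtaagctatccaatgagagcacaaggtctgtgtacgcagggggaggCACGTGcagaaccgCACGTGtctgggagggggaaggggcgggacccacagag
Cry1: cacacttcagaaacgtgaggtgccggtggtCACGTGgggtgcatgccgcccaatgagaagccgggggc
Per3: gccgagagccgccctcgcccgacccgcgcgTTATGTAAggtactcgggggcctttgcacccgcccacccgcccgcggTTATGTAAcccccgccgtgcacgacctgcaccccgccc
Btg2: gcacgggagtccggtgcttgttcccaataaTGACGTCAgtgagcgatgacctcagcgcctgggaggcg

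The Ciart window holds 3 E-boxes and the Per3 window 2 D-boxes, and the other windows hold 1 match each. On either strand of the promoter windows in the table (32851 in all, from 250 bases before to 50 after a start), CACGTG occurred in 7.15%, TTATGTAA in 0.938%, TGACGTCA in 1.79% and the shorter core TGACGT, which lies inside TGACGTCA, in 7.51%. In the 18110 promoters of measured genes the shares were 8.72%, 0.69%, 2.49% and 9.59%. Among cosine genes, by the time their peak was nearest to, CACGTG occurred in 7 of 70 promoters for ZT0, 7.07% for ZT4, 13.5% for ZT8, 22.0% (9 of 41) for ZT12, 8.96% for ZT16 and 9.3% for ZT20. TGACGT occurred in 14 of 52 promoters (26.9%) of the genes higher at ZT0 than at the other times, TGACGTCA in 3 of them (5.77%) and CACGTG in 8 (15.4%). These shares describe letters in a window, they were not tested, and several promoters can belong to 1 gene.

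The repressors of the clock had the widest median range of the gene lists, 1.03 against 0.21 over all genes. Of 13 measured repressors and regulators, 8 passed the F test and the same 8 genes passed the cosine, against 1.63% and 2.57% of all genes. Per2, a core repressor, stood at 7.92 and 7.95 at ZT0, 7.45 and 7.50 at ZT4, 8.07 and 8.27 at ZT8, 8.57 and 9.12 at ZT12, 9.19 and 9.18 at ZT16, and 8.80 and 9.32 at ZT20 (replicates 1 and 2, log2). It was high from dusk into the night, and both ZT4 arrays lay below the 10 others. Its cosine had an amplitude of 0.87 ± 0.06 (SE), a 3.34-fold span from trough to peak, and a peak at ZT 16.0 ± 0.26 h (limma F test, adjusted p = 4.29e-10). From ZT20 to ZT0 it fell by 1.13 ± 0.14 on the log2 scale (limma, adjusted p = 8.08e-06).

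Per3, a paralogue of Per2, ran from 9.87 and 9.84 at ZT4 to 10.81 and 10.96 at ZT12, and peaked at ZT 14.9 ± 0.38 h (limma, adjusted p = 5.54e-07). Per1 did not pass the F test (limma, adjusted p = 0.0745): its ZT16 arrays read 9.75 and 8.84, and without the arrays labelled ZT16 and ZT20 replicate 2 it passed (adjusted p = 0.000809). Ciart, a repressor of ARNTL and CLOCK, shows the same split between replicates. It stood at 6.95 and 7.03 at ZT0, 6.96 and 7.06 at ZT4, 7.66 and 7.50 at ZT8, 8.35 and 8.43 at ZT12, 8.13 and 7.18 at ZT16, and 7.20 and 8.18 at ZT20. The light-phase pairs lay close together, and each dark-phase pair held 1 array near the ZT0 level and 1 near the ZT12 level. The adjusted p of the F test was 0.000219 with all arrays (limma).

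Nr1d1, the nuclear receptor that represses Arntl, followed an earlier course. Its levels were 7.08 and 7.14 at ZT0, 8.22 and 8.11 at ZT4, 8.71 and 8.63 at ZT8, 8.50 and 8.37 at ZT12, 7.89 and 7.28 at ZT16, and 7.69 and 7.92 at ZT20. Both ZT0 arrays lay below all others, and both ZT8 arrays above. It rose 2.08-fold from ZT0 to ZT4 (log2 1.05 ± 0.13, limma, adjusted p = 5.43e-06) and its cosine peaked at ZT 9.30 ± 0.32 h, though its course also departed from a cosine (adjusted p = 0.00177). Nr1d2, its paralogue, stood at 11.69 and 11.71 at ZT0 and 12.74 and 12.90 at ZT12 and peaked at ZT 13.0 ± 0.38 h (limma, adjusted p = 5.18e-07, and 0.101 on the mean of its probe sets, of which the dimmer spanned 0.29).

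Cry1, the repressor of the late night, ran opposite to Nr1d1. It read 8.09 and 7.89 at ZT0, 7.14 and 7.15 at ZT4, 6.64 and 6.58 at ZT8, 6.96 and 7.08 at ZT12, 7.48 and 7.84 at ZT16, and 7.52 and 7.62 at ZT20. The ZT8 pair was below and the ZT0 pair above every other array, with a peak at ZT 20.9 ± 0.36 h (limma, adjusted p = 6.67e-08). Timeless, a replication fork gene listed with the clock, was low only at ZT0, with 10.42 and 10.24 against 11.40 to 11.93 in the 10 other arrays. It was 2.42-fold lower at ZT0 than the mean of the other times (limma, adjusted p = 1.24e-07). Bhlhe40, a repressor that binds E-boxes, spanned 0.49 and peaked at ZT 13.0 ± 0.60 h (limma, adjusted p = 0.00166). Cry2, Csnk1d and Csnk1e did not pass.

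Of 5 measured activators, Arntl and Npas2 passed the F test, and Clock passed the cosine only (limma, adjusted p = 0.0198, against 0.0608 in the F test). Arntl, the central activator, stood at 9.61 and 9.74 at ZT0, 9.77 and 9.71 at ZT4, 8.96 and 8.85 at ZT8, 8.64 and 8.21 at ZT12, 8.38 and 9.06 at ZT16, and 8.93 and 8.26 at ZT20. It was high at lights-on and early in the day, in antiphase to Per2 and Ciart, with the split between dark-phase replicates again visible. Its amplitude was 0.66 ± 0.06 and its peak ZT 2.37 ± 0.36 h (limma, adjusted p = 1.07e-07). It fell by 0.83 ± 0.15 on the log2 scale from ZT4 to ZT8 (limma, adjusted p = 0.0223) and rose 2.12-fold from ZT20 to ZT0 (adjusted p = 4.74e-05). Npas2, which can stand in for CLOCK, ran from 5.50 and 5.29 at ZT12 to 6.60 and 6.54 at ZT4, a dim range that begins at the first quartile of the probe sets (5.37 to 5.45), and peaked at ZT 2.81 ± 0.39 h (limma, adjusted p = 5.09e-07). The other probe set of Npas2 spanned only 0.29, with its highest mean at ZT4.

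Among the 4 bZIP factors of clock output, Dbp, Tef and Nfil3 passed both tests. Dbp, an activator at D-boxes, had the widest span of the clock genes. It stood at 10.82 and 10.82 at ZT0, 11.22 and 11.10 at ZT4, 12.33 and 12.35 at ZT8, and 12.72 and 12.79 at the next time, ZT12, ahead of the dark-phase values given above. The light-phase replicates lay close together, and the mean rose 2.27-fold from ZT4 to ZT8 (log2 1.18 ± 0.24, limma, adjusted p = 0.0341). Its peak was at ZT 12.0 ± 0.43 h, and the adjusted p of the F test was 7.25e-06 with all arrays (limma). Tef, a relative of Dbp, spanned 0.67 and peaked at ZT 14.0 ± 0.54 h (limma, adjusted p = 0.000398, and 0.334 on the mean of its probe sets). Nfil3, which represses at D-boxes, peaked on the opposite side of the day, at ZT 22.9 ± 0.50 h, from 7.83 and 7.60 at ZT0 down to 6.29 and 6.55 at ZT12 (limma, adjusted p = 0.000156).

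Of 13 measured genes listed as clock output targets, 6 passed the F test and 7 the cosine (1.63% and 2.57% over all genes), with a median range of 0.45. Wee1, a kinase that restrains entry into mitosis, read 9.72 and 9.83 at ZT4 and 10.53 and 10.35 at ZT16, and peaked at ZT 16.6 ± 0.50 h (limma, adjusted p = 0.000358). Tspan4, a tetraspanin, ran from 7.93 and 7.98 at ZT4 to 8.76 and 8.77 at ZT12 (limma, adjusted p = 0.000219), and Usp2, a deubiquitinase, spanned 0.59 (adjusted p = 0.00214). Usp2, Wee1, Tspan4, Tef, Dbp, Ciart and Bhlhe40 did not pass the F test when the spread came from long-day arrays alone (limma, adjusted p 0.0645 to 0.186).

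**Figure D2:**
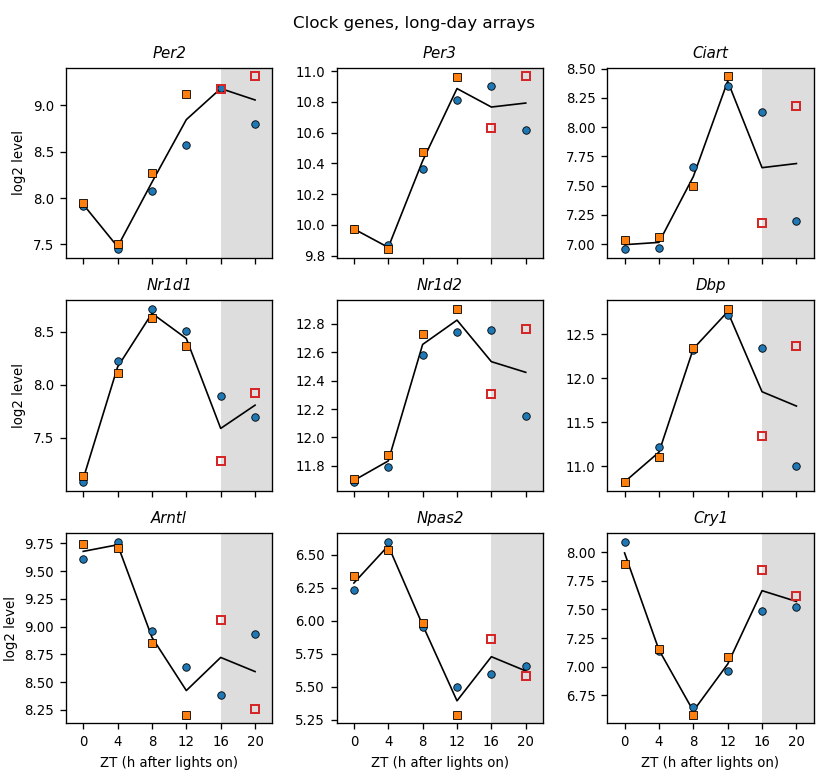
Log2 level (vertical axes) of 9 clock genes on each long-day array against ZT (h), with replicate 1 as blue circles, replicate 2 as orange squares, the arrays labelled ZT16 and ZT20 replicate 2 as open red squares, the mean of 2 arrays as a black line and dark hours in grey. Per2 is highest at ZT16 and Per3 at ZT12, Arntl and Npas2 around ZT4, and in Dbp and Ciart the open squares cross over, with Dbp at 11.34 and 12.36.

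The next contrast set ZT0, at lights-on, against the mean of the 5 other times. It does not ask whether a change was confined to ZT0. By it, 53 genes were higher at ZT0 (0.291% of those tested) and 21 lower (0.115%), 74 in all (0.407%, limma, adjusted p under 0.05). Clock genes of the lists above were among them. Of these, 1 repressor or regulator, 2 activators and 1 bZIP factor were higher, and 7 repressors or regulators and 2 bZIP factors lower. Of 27 measured immediate early genes, which respond to stimulation within the hour, 13 were higher at ZT0 and 0 lower (17 and 0 at an unadjusted p under 0.05), and the median difference of the list was 0.56 against 0.00 over all genes. The course departed from a 24 h cosine in 22 genes (0.121%), and 9 of these were immediate early genes. The count of 74 genes that differed at ZT0 was 31 without ZT0 replicate 1 and 36 without ZT0 replicate 2, and that of 22 was 14 without ZT0 replicate 1.

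Btg2, an antiproliferative gene, gave the smallest p-value of the F test. Its levels were 11.16 and 11.37 at ZT0, 9.44 and 9.82 at ZT4, 9.37 and 9.26 at ZT8, 9.08 and 9.55 at ZT12, 9.31 and 9.57 at ZT16, and 9.27 and 9.47 at ZT20. Both ZT0 arrays lay above all others, which overlapped among themselves. The level at ZT0 was 3.61-fold that of the other times (log2 1.85 ± 0.10, limma, adjusted p = 3.13e-14), and its second probe set, spanning 1.94, was also highest at ZT0. Gadd45b, a stress response gene, stood at 9.92 and 10.003 at ZT0, 8.10 and 8.19 at ZT4, 8.34 and 8.35 at ZT8, 8.29 and 8.29 at ZT12, 8.17 and 8.25 at ZT16, and 7.99 and 8.20 at ZT20. Its 10 other arrays lay between 7.99 and 8.35, and the level at ZT0 was 3.36-fold higher (limma, adjusted p = 3.69e-14).

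Several transcription factors of the list were among the 13 genes higher at ZT0. Junb, an AP-1 subunit, stood at 8.27 and 8.12 at ZT0 and at 6.11 to 6.56 in the 10 other arrays (3.58-fold, limma, adjusted p = 6.07e-11). Egr1, a zinc finger factor, stood at 12.05 and 11.88 against 9.75 to 10.72 (3.42-fold, adjusted p = 9.68e-10), and its relative Egr2 at 7.45 and 7.39 against 5.76 to 6.37 (2.65-fold, adjusted p = 4.08e-10). Nr4a1, an orphan nuclear receptor, stood at 9.57 and 9.41 against 7.96 to 8.34 (2.51-fold, adjusted p = 1.09e-06). For each of these genes both ZT0 arrays lay above every other array. Gem, a small GTPase, stood at 9.13 and 8.99 against 6.97 to 7.59 (3.49-fold, limma, adjusted p = 3.59e-10). Fosl2, another AP-1 subunit, was 2.26-fold higher at ZT0 by its brighter probe set (adjusted p = 2.18e-09), while the dimmer one spanned only 0.22 and was highest at ZT20.

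Fos itself did not pass (limma F test, adjusted p = 0.701). It read 10.71 and 10.71 at ZT0 but 9.40 and 11.09 at ZT4 and 9.80 and 10.75 at ZT12, where the replicates lay far apart. Ier2 was higher at ZT0 (8.78 and 8.14 against 7.62 to 8.08, limma, adjusted p = 0.00777) without passing the F test (0.0642). Nr4a2, Nr4a3, Dusp1 and Maff make up the rest of the 13, with ZT0 levels 1.47-fold to 1.74-fold those of the other times. Jun passed the F test (adjusted p = 0.0253) with its highest mean at ZT20 and no difference at ZT0 past the threshold.

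The largest step of the day belonged to Fst, which encodes follistatin, a binder of activins. It stood at 8.68 and 8.89 at ZT0, 6.60 and 6.72 at ZT4, 6.23 and 6.46 at ZT8, 5.80 and 5.67 at ZT12, 5.41 and 6.09 at ZT16, and 5.72 and 5.68 at ZT20. The level declined over several hours after ZT0 rather than returning to the dark-phase level by ZT4. From ZT20 to ZT0 it rose 8.53-fold (log2 3.09 ± 0.27, limma, adjusted p = 2.45e-09), from a level close to the first quartile of the probe sets, and its dimmer probe set spanned 1.70 with its highest mean at ZT0 too. Diras2, a Ras-like GTPase, Arrdc4, an arrestin-domain gene, and Tent5a, a poly(A) polymerase, were 1.80-fold, 2.34-fold and 2.21-fold higher at ZT0 (limma, adjusted p 1.44e-09 to 6.72e-09). The other probe set of Diras2 spanned only 0.22, with its highest mean at ZT0.

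Other genes were low at lights-on. Dusp4, a MAP kinase phosphatase, stood at 8.23 and 8.37 at ZT0, 9.40 and 9.25 at ZT4, 10.33 and 9.87 at ZT8, 9.57 and 10.03 at ZT12, 9.76 and 10.90 at ZT16, and 10.49 and 10.16 at ZT20. Both ZT0 arrays lay below all others, and the step from ZT20 was -2.03 ± 0.32 (limma, adjusted p = 0.000275). Pde10a, a phosphodiesterase that degrades cyclic nucleotides, stood at 9.05 and 9.25 at ZT0 against 9.64 to 10.03. It was 1.60-fold lower at ZT0 (limma, adjusted p = 0.00442), but its F test (0.0356) did not pass without both arrays labelled ZT16 and ZT20 replicate 2 (0.0575) or in 6 of the 12 fits that each left out 1 array, with 0.522 and 0.153 without ZT0 replicate 1 and 2.

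**Figure D3:**
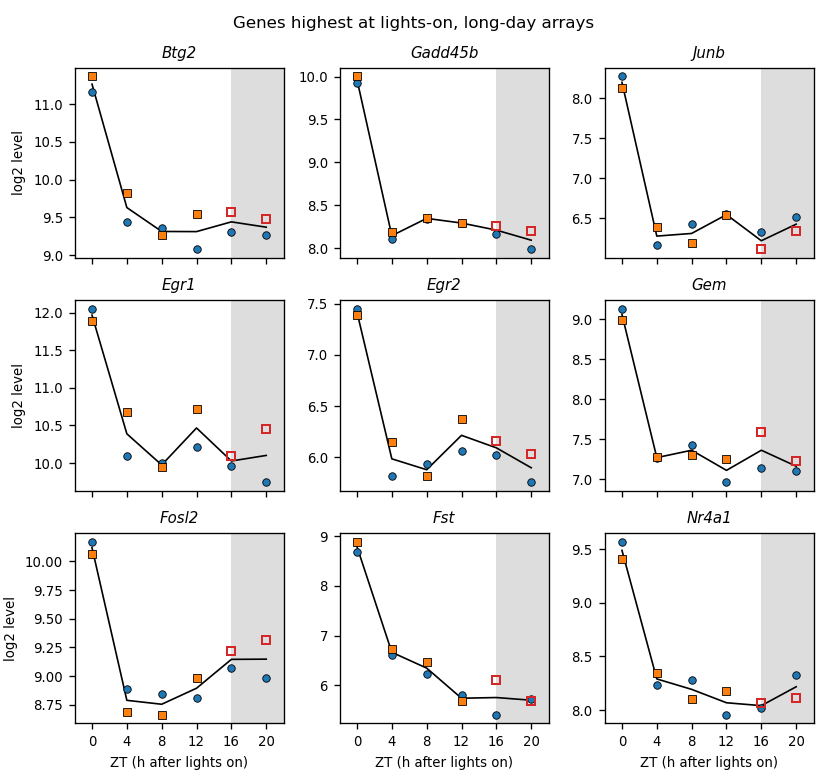
Log2 level (vertical axes) of 9 genes higher at ZT0 on each long-day array against ZT (h), with replicate 1 as blue circles, replicate 2 as orange squares, the arrays labelled ZT16 and ZT20 replicate 2 as open red squares, the mean of 2 arrays as a black line and dark hours in grey. In Btg2, Gadd45b, Junb, Egr1, Egr2, Gem and Nr4a1 both ZT0 arrays stand above the 10 others, and Fst declines from 8.68 and 8.89 over the following times.

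The steps between neighbouring times show when the tissue changed. From ZT20 to ZT0, across lights-on, 52 genes rose (0.286%) and 19 fell (0.104%), and 10 of the 27 immediate early genes were among the rises and 5 of the 13 clock repressors and regulators among the falls. From ZT0 to ZT4, 9 genes rose (0.0495%) and 30 fell (0.165%), 11 of the falls being immediate early genes. The rises of that step included Eya3, Fabp7, Nr1d1, Timeless and Tor4a. From ZT4 to ZT8, 12 genes rose (0.066%) and 6 fell (0.033%), and clock genes led it: Dbp, Nr1d2 and Per2 rose 2.27-fold, 1.76-fold and 1.62-fold and Arntl and Npas2 fell by 0.83 and 0.60 on the log2 scale (limma, adjusted p 0.0124 to 0.0442). No gene passed from ZT8 to ZT12 (636 genes at an unadjusted p under 0.05).

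The dark phase gave few calls with the labels as deposited. From ZT12 to ZT16, 3 genes passed (0.0165%): the heat shock genes Hspa1a and Hspa1b rose (2 genes, 0.011%) 2.22-fold and 2.13-fold and Nr1d1 fell (1 gene, 0.0055%) by 0.85 ± 0.13 (limma, adjusted p 0.00477 to 0.0103). Without both arrays none of these 3 passed (adjusted p 0.165 to 0.406), and 2 other genes did, Alb and Fgb, which encode plasma proteins and are named here after their values were seen. From ZT16 to ZT20, 0 genes passed by limma, with 200 at an unadjusted p under 0.05. Without both arrays 10 genes passed, Dbp (-1.34), Ciart (-0.93) and Mtnr1a (1.68, all log2 and named after their values were seen) among them, each resting on 1 array per time with the spread of the other groups. With the labels of both arrays exchanged, 21 genes passed.

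Single arrays moved the step counts. The 71 genes of ZT20 to ZT0 became 34 and 31 without ZT0 replicate 1 and 2, and the 39 of ZT0 to ZT4 became 22 and 25 without them and 25 without ZT4 replicate 2. The 18 of ZT4 to ZT8 became 6 and 0 without ZT4 replicate 1 and 2, and 0 and 11 without ZT8 replicate 1 and 2. The 3 of ZT12 to ZT16 became 0 without ZT12 replicate 1, 25 without ZT16 replicate 1 and 7 without either ZT20 array.

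**Figure D4:**
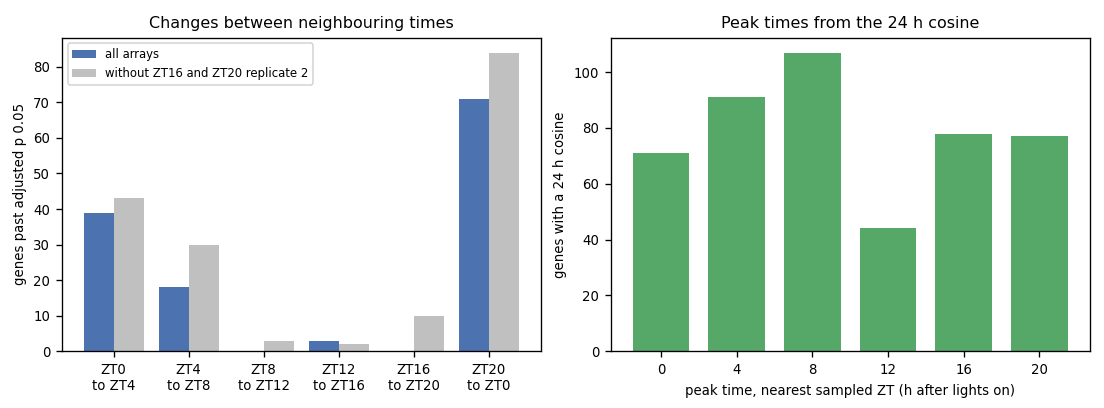
Left, the number of genes that passed (limma, adjusted p under 0.05) for each step between neighbouring times, with all 12 long-day arrays and without the arrays labelled ZT16 and ZT20 replicate 2; right, the number of genes that passed the 24 h cosine by the time their peak was nearest to. The steps into and out of ZT0 hold 71 and 39 genes with all arrays, and the step from ZT16 to ZT20 holds 0 with all arrays and 10 without both.

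In the thyrotropin and photoperiod list, 2 of 13 measured genes passed the F test and 1 the cosine (1.63% and 2.57% over all genes). Eya3, a transcriptional coactivator of Tshb, was highest at ZT4. It stood at 9.46 and 9.69 at ZT0, 10.71 and 10.88 at ZT4, 10.17 and 9.95 at ZT8, 9.72 and 10.01 at ZT12, 9.60 and 10.58 at ZT16, and 10.02 and 9.82 at ZT20. The ZT4 pair lay above all other arrays, with the array labelled ZT16 replicate 2 next. From ZT0 to ZT4 it rose 2.33-fold (log2 1.22 ± 0.18, limma, adjusted p = 0.000183). Its F test passed with all arrays (adjusted p = 0.00155) and without both (7.17e-06), but not without ZT4 replicate 2 (0.0701), without the arrays high in Gh or Prl (0.113), with long-day arrays alone (0.169) or on the mean of its probe sets (0.0794). Its other probe sets spanned 0.59, 0.44 and 0.19, and only the first and the last of these were highest at ZT4. None of 10 other EYA and DACH genes and their homeobox partners passed the F test (limma, with 0 at an unadjusted p under 0.05).

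Tshb itself did not pass (limma F test, adjusted p = 1, range of means 0.46). It stood at 14.13 and 14.07 at ZT0, 14.23 and 14.37 at ZT4, 14.43 and 14.15 at ZT8, 13.87 and 14.17 at ZT12, 13.94 and 14.08 at ZT16, and 13.77 and 13.93 at ZT20, so that every time overlapped with others. Cga passed the cosine with a small amplitude of 0.29 ± 0.06 and a peak at ZT 5.78 ± 0.77 h (limma, adjusted p = 0.00799, F test 0.0646). Tshr, the thyrotropin receptor, stood at 9.11 and 9.09 at ZT0 against 8.50 to 8.90 in the other arrays (limma F test, adjusted p = 0.0218, and 0.178 and 0.142 without ZT0 replicate 1 and 2). Dio2, the enzyme that activates thyroid hormone, lay between 13.43 and 13.69 and did not pass (limma, adjusted p = 1).

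The melatonin receptor gene depended on the order of the dark-phase arrays. Mtnr1a stood at 9.32 and 9.60 at ZT0, 7.91 and 8.07 at ZT4, 8.69 and 8.47 at ZT8, 8.43 and 8.72 at ZT12, 8.17 and 10.41 at ZT16, and 9.85 and 8.30 at ZT20. The light-phase pairs lay close together, with the ZT0 pair above the rest, while each dark-phase pair held 1 array above and 1 below those ZT0 levels. The SD was 1.58 at ZT16, and the F test did not pass (limma, adjusted p = 0.218). Without both arrays it passed (6.64e-05), with a peak at ZT 21.2, and with their labels exchanged the rise from ZT16 to ZT20 was 1.90 on the log2 scale. Crem, a cAMP-responsive modulator, stood at 9.85 and 9.90 at ZT0 and between 8.77 and 9.69 elsewhere, and peaked at ZT 21.8 ± 0.56 h (limma, adjusted p = 0.000569). Of 23 genes of cAMP and melatonin signalling, 2 passed the F test (Crem and Pde10a) and 3 the cosine (Crem, Pde7b and Rgs2). Over all genes the shares were 1.63% and 2.57%. At an unadjusted p under 0.05 the list held 9 genes in the F test and 10 in the cosine (limma).

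Of 12 measured heat shock genes, 5 passed the F test and 6 the cosine (1.63% and 2.57% over all genes), with a median range of 0.39. Hspa1b, an inducible HSP70, stood at 9.68 and 9.55 at ZT0, 9.23 and 8.99 at ZT4, 8.94 and 8.84 at ZT8, 8.88 and 9.29 at ZT12, 9.81 and 10.54 at ZT16, and 10.60 and 10.17 at ZT20. All 4 dark-phase arrays lay above the 8 others. The amplitude was 0.78 ± 0.07, a 2.95-fold span, with a peak at ZT 19.2 ± 0.37 h (limma F test, adjusted p = 5.54e-07, and 2.08e-06 without both arrays). Hspa1a, a near-identical copy, whose signal on an array can be shared with it, peaked at ZT 20.2 ± 0.44 h (adjusted p = 2.04e-05). Dnajb1 and Hsph1, co-chaperones of HSP70, peaked at ZT 18.1 ± 0.54 h and ZT 21.8 ± 0.60 h (limma, adjusted p = 0.00071 and 0.00184). Cirbp, a cold-inducible RNA-binding gene, peaked on the opposite side, at ZT 8.87 ± 0.83 h, by the cosine (adjusted p = 0.018) and not by the F test (0.0883), which it passed without both arrays (0.0227) and with their labels exchanged (0.00307).

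Of 13 measured glucocorticoid-responsive genes, 4 passed the F test and 5 the cosine (1.63% and 2.57% over all genes). Fkbp5, a co-chaperone of steroid receptors, stood at 9.36 and 9.41 at ZT0, 9.28 and 9.08 at ZT4, 9.12 and 9.08 at ZT8, 9.38 and 9.54 at ZT12, 10.03 and 9.52 at ZT16, and 9.86 and 10.12 at ZT20. The highest arrays were ZT20 replicate 2, ZT16 replicate 1 and ZT20 replicate 1, and the peak was at ZT 18.2 ± 0.51 h (limma, adjusted p = 0.000401, and 0.0577 on the mean of its probe sets). Zbtb16, a zinc finger repressor, ran from 8.30 and 8.25 at ZT4 to 9.93 and 8.86 at ZT16 and 9.03 and 10.20 at ZT20, a crossover like that of Dbp, and peaked at ZT 17.4 ± 0.54 h (adjusted p = 0.00104, and 6.32e-07 without both arrays). Tsc22d3, a leucine zipper gene, peaked at ZT 18.2 ± 0.65 h (adjusted p = 0.0147, and 0.081 without both arrays), and Sult1a1, a sulfotransferase, passed at 0.0255 with a peak at ZT 20.3 ± 0.75 h.

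Genes of folding in the endoplasmic reticulum passed the F test in 3 of 21 cases, against 1.63% of all genes. Herpud1, which takes part in degradation of misfolded proteins, ran from 10.36 and 10.35 at ZT0 to 10.78 and 10.90 at ZT12 and peaked at ZT 15.4 ± 0.58 h (limma, adjusted p = 0.00125). Sdf2l1 was highest at ZT4, with 9.37 and 9.11, and lowest at ZT12, with 8.47 and 8.40 (adjusted p = 0.0018). Dnajb11, the remaining gene, spanned 0.36 (adjusted p = 0.0254). Creld2, another of the list, did not pass (limma F test, adjusted p = 0.0749) but did with the labels of the arrays labelled ZT16 and ZT20 replicate 2 exchanged (0.00141). None of 14 cholesterol synthesis, 28 mitochondrial complex I or 24 ribosomal protein genes passed the F test or the cosine by limma, with median ranges of 0.28, 0.19 and 0.16 and with 4, 0 and 1 genes at an unadjusted p under 0.05 in the F test.

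Several of these calls leaned on the choice of spread or on single arrays. With the spread from long-day arrays alone the F test was not passed by Zbtb16 (adjusted p = 0.292), Tsc22d3 (0.139), Sult1a1 (0.247), Sdf2l1 (0.253), Dnajb11 (0.314), Hspa1a (0.0633), Hsph1 (0.0603) and Crem (0.0599). Without the arrays high in Gh or Prl it was not passed by Sult1a1 (0.471), Tsc22d3 (0.26), Usp2 (0.209), Dnajb11 (0.209), Pde10a (0.135), Coq10b (0.0721) and Hsph1 (0.0546, limma throughout). Without ZT8 replicate 1 alone, Sult1a1 (0.333) and Tsc22d3 (0.0644) did not pass, and Crem did not on the mean of its probe sets (0.0587).

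Fabp7, a fatty acid binding protein of astrocytes and other glia, followed a smooth course with its maximum in the light phase. It stood at 9.96 and 9.94 at ZT0, 10.64 and 10.76 at ZT4, 10.53 and 10.60 at ZT8, 10.24 and 10.12 at ZT12, 9.71 and 9.60 at ZT16, and 9.30 and 9.76 at ZT20. The 4 arrays of ZT4 and ZT8 lay above all others, with an amplitude of 0.61 ± 0.05 and a peak at ZT 6.49 ± 0.30 h (limma F test, adjusted p = 1.75e-08). It was the only gene of 10 astrocyte markers to pass with the labels as deposited, against 1.63% of all genes. Gjb6, another of them, did not pass (limma F test, adjusted p = 0.0927) but did with the labels of the arrays labelled ZT16 and ZT20 replicate 2 exchanged (0.0162). The summed astrocyte level ran from 14.37 in ZT20 replicate 1 to 14.75 in ZT4 replicate 2, and its part in the course of Fabp7 was not tested.

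Of 19 markers of hypothalamic neurons, 1 passed the F test with the labels as deposited, against 1.63% of all genes. That gene, Oxt, which encodes oxytocin, stood at 12.42 and 12.60 at ZT4 and between 11.06 and 12.04 elsewhere (limma, adjusted p = 0.0077). Oxt did not pass without ZT4 replicate 1, without ZT4 replicate 2 or without the arrays high in Gh or Prl. Avp, another of the 19, did not pass (limma F test, adjusted p = 0.15) but did with the labels of the arrays labelled ZT16 and ZT20 replicate 2 exchanged (0.0457). The summed level of the 19 markers was 15.32 and 15.41 at ZT4 and 15.05 to 15.34 elsewhere, so the times overlapped. Of 12 meninges and fibroblast genes, Igf2, Slc6a13 and Col1a1 passed the F test (limma, adjusted p 0.00473 to 0.0174), against 1.63% of all genes. Igf2 and Slc6a13 were highest at ZT4. The summed level of the list ran from 14.98 in ZT20 replicate 1 to 15.54 in ZT4 replicate 1. Without ZT4 replicate 1 neither Igf2 (0.148) nor Slc6a13 (0.0601) passed, and Col1a1 did not pass without both arrays labelled ZT16 and ZT20 replicate 2 (0.0562), without ZT20 replicate 1 (0.0695) or on the mean of its probe sets (0.338). How far neighbouring tissue contributed to other genes highest at ZT4 was not tested. The excess of 3' over 5' actin signal, a sign of RNA quality, averaged 1.82 at ZT12 and 1.56 to 1.65 at the other times, and with it as a covariate 289 genes passed the F test and 490 the cosine.

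**Figure D5:**
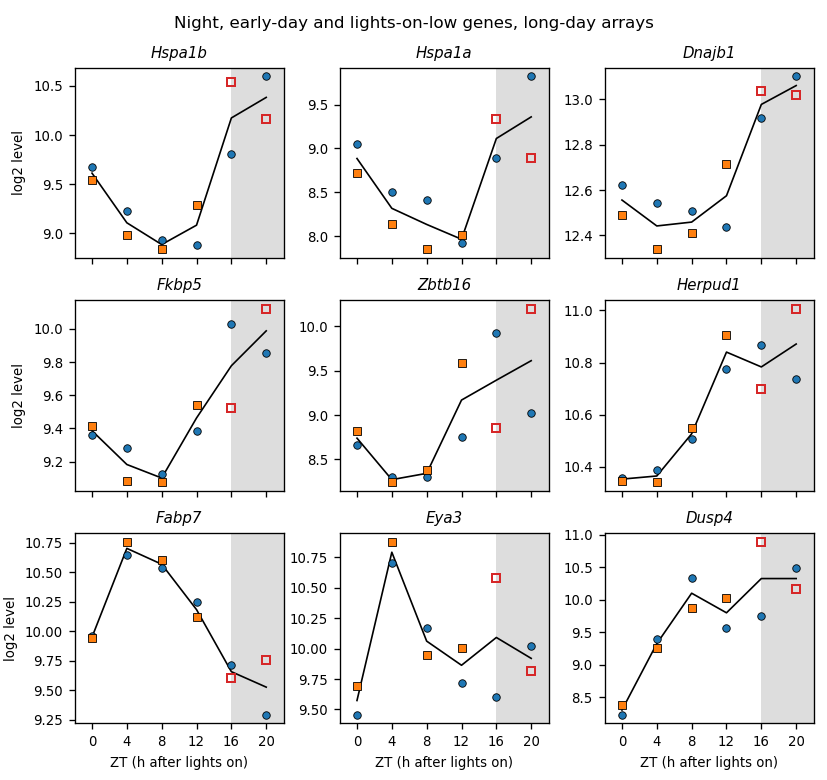
Log2 level (vertical axes) of 9 further genes on each long-day array against ZT (h), with replicate 1 as blue circles, replicate 2 as orange squares, the arrays labelled ZT16 and ZT20 replicate 2 as open red squares, the mean of 2 arrays as a black line and dark hours in grey. Hspa1b is high in all 4 dark-phase arrays (9.81 to 10.60), Fabp7 peaks at ZT4 and ZT8, Eya3 at ZT4, and Dusp4 is lowest at ZT0 (8.23 and 8.37).

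The second comparison asks how the long-day course differed from the short-day course at the same clock time. The sample titles place lights-on of the long-day group 4 h ahead of that of the short-day group, so ZT0 of long days falls at the clock time of ZT20 of short days. Matched in this way, 85 genes differed in course (0.467%, limma F test, adjusted p under 0.05), and 68 of the 296 genes that varied under long days were among them. Both tests use the same long-day means, so this overlap is no separate evidence. Of 22 clock genes in the 3 lists of repressors, activators and bZIP factors, 12 differed, and of 27 immediate early genes, 8 differed. The count was 185 without ZT20 replicate 1, 44 without the arrays high in Gh or Prl, and 31 with long-day and short-day arrays fitted alone.

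The peaks of several clock genes lay later in clock time under long days. Per2 peaked at 19.0 h against 15.3 h under short days (limma, difference in course, adjusted p = 7.24e-06), with like amplitudes of 0.87 and 0.85. Nr1d1 peaked at 12.3 h against 8.20 h (adjusted p = 6.28e-07), Dbp at 15 h against 10.2 h (0.000297) and Arntl at 5.37 h against 1.65 h (0.000622). Cry1 peaked at 23.9 h against 21.2 h (9.28e-05), and Npas2 at 5.81 h against 1.84 h (2.59e-05). Nfil3, with peaks at 1.93 h and 22.5 h, did not pass (0.148). The -3.80 h found above for the phase of 10 arrays is the same shift read array by array from 15 of these genes, and is no separate evidence.

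Some genes of the lights-on group differed in course as well. Gadd45b had a short-day mean of 8.40 at the clock time where the long-day arrays read 9.92 and 10.003, and its short-day means lay between 8.04 and 8.40 throughout (limma, adjusted p = 3.59e-06). Btg2 had a short-day mean of 9.70 at that clock time, its highest under short days too (adjusted p = 4.24e-05), and so did Junb, with 7.14 (0.0157), and Fst, with 6.86 (0.00182). Gem and Egr2 had short-day means of 6.51 to 7.11 and 6.14 to 6.33 over the whole day (9e-05 and 0.000528). Egr1 and Nr4a1 did not pass (0.0622 and 0.0987), though Egr1 did without both arrays labelled ZT16 and ZT20 replicate 2 (0.0224).

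Among other genes, Ddit4l, an inhibitor of mTOR signalling, peaked at 17.4 h under long days and at 7.37 h under short days (limma, adjusted p = 2.37e-06). Dusp4 was lowest at ZT0 under long days, whereas its short-day means lay between 6.04 at ZT16 and 8.28 at ZT20 (adjusted p = 9.99e-06). Eya3 had short-day means of 8.98 to 9.30 and no short-day variation past the threshold (limma, adjusted p = 0.73), and its courses differed at 0.0277. Fabp7 peaked at 9.49 h and 8.43 h in clock time under long and short days, a difference in course that did not pass with all arrays (0.261) and passed without the arrays labelled ZT16 and ZT20 replicate 2 (0.0352). Mtnr1a did not pass either with the labels as deposited (0.422) and passed without those same arrays (5.02e-06).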

How the data were processed

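Expression was measured on arrays after one-cycle biotin labelling. The values are log2 probe set summaries that the authors deposited, made with RMA in R 2.8.0 per the submitters' processing notes, so background correction, normalization and summary came before deposit. The array medians lay between 6.99 and 7.03 in the long-day group, and no pair of arrays was identical. The number of arrays, 2 per time point, limits the precision.

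Of 45101 probe sets, 34958 carried 1 gene symbol, 932 several and 9211 none, and 34754 had an Entrez identifier in the RefSeq table, with 0 symbols changed. Each gene was read from the brightest of its probe sets, by the mean of the 48 arrays (18194 genes, 9012 with more than 1 probe set). The model was limma 3.58.1 in R 4.3.3 with a mean for each of 24 groups of 2 arrays, a variance trend and 24 residual degrees of freedom. Tests were two-sided, adjusted over all genes by Benjamini-Hochberg with a threshold of 0.05. The contrasts were the F test between the 6 long-day means, a 24 h cosine, the departure from it, the 6 steps between neighbouring times, ZT0 against the mean of the others, and the course minus the short-day course matched by clock time. The fit was tested on simulated data.

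The samples, gene lists and rules were chosen with earlier results of these data known. Genes named were the 20 smallest p-values of the F test, the 10 smallest of the cosine and of the departure, up to 5 largest rises and falls of each step and of ZT0 (clone names passed over), all clock genes, Tshb, Cga, Eya3, Dio2 and Mtnr1a, and up to 4 members of each other list by p-value. Fos, Ier2, Jun, Maff, Dusp1 and Nr4a1 to Nr4a3 are list members named after their values were seen, and not every gene under the rule is described. Motifs were searched on both strands of RefSeq promoters (GRCm38.p6), and 14453 of the 18194 genes had one.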

Additional observations from a re-analysis of the deposited data

Results flagged for a closer look

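Courses that differed between long and short days at matched clock time are listed here because the difference itself passed a test (limma, 5 contrasts at once, adjusted over all genes). It passed in 85 of all 18194 genes (0.467%). Among 47 named genes, 28 passed, and each adjusted p follows. The 47 were named as clock genes or for small p-values or large changes in these same long-day arrays. Their share therefore cannot be set against the 0.467% over all genes.

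Of the clock genes, Nr1d1 (6.28e-07), Per2 (7.24e-06), Timeless (2.22e-05), Npas2 (2.59e-05), Cry1 (9.28e-05), Dbp (0.000297), Arntl (0.000622), Per3 (0.00302), Nr1d2 (0.00487), Tef (0.0104), Ciart (0.0221) and Bhlhe40 (0.0484, and 0.129 without the arrays labelled ZT16 and ZT20 replicate 2) differed. Of genes higher at ZT0 under long days, Gadd45b (3.59e-06), Diras2 (7.54e-06), Btg2 (4.24e-05), Fosl2 (9e-05), Gem (9e-05), Arrdc4 (0.000172), Egr2 (0.000528), Tent5a (0.000651), Fst (0.00182) and Junb (0.0157) differed. The remaining genes were Ddit4l (2.37e-06), Dusp4 (9.99e-06), Cys1 (0.000528), Hspa1b (0.0219), Eya3 (0.0277) and Tor4a (0.04).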

How the results depend on the processing

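Counts are in the order F test, cosine, departure from it, the steps from ZT0, ZT4, ZT8, ZT12, ZT16 and ZT20, ZT0 against the others, and the difference in course (296, 468, 22, 39, 18, 0, 3, 0, 71, 74 and 85). Only those that moved by over 1.5 times are given, and the F test and the cosine under the replicate block. A filter on dim genes left 12 for the departure, 23 for the step from ZT0, 11 for that from ZT4, 44 for that from ZT20, 40 for ZT0 and 56 for the course, and the mean of probe sets left 9 for the step from ZT4. Array weights gave 35, 64 and 61 for the departure and the steps from ZT0 and ZT4, then 41 for the step from ZT20, 113 for ZT0 and 54 for the course. With a replicate block within each condition the F test and the cosine gave 439 and 683, the departure was 35, the steps from ZT4 and ZT12 were 53 and 6, and the course was 138; with a replicate block over all arrays the step from ZT4 was 38. The design notes say that the whole procedure was run a second time, but no label says that a replicate number marks a run, and the replicate differences of 2 times correlated with r from 0.087 to 0.401 (14 of 15 pairs over 0.1), so the block is an alternative only. Without both arrays that went against their labels the departure and the steps from ZT4, ZT8 and ZT16 were 34, 30, 3 and 10, and with their labels exchanged the F test, the cosine and the departure were 492, 713 and 37, those steps 33, 3 and 21 and the course 156. Long-day arrays alone gave 83 and 179 for the F test and the cosine, 0 for the steps from ZT4 and ZT12 and 34 for that from ZT20, and the course, with short-day arrays added, was 31. Chosen after seeing the data, the replicate block without both arrays gave 480 for the F test, 42 for the departure, steps of 75, 6 and 8 from ZT4, ZT8 and ZT16 and 166 for the course. Long-day arrays alone without both gave 63 for the departure, steps of 65, 5 and 19 from ZT0, ZT12 and ZT16, and 51 for the course. Leaving out the arrays high in Gh or Prl gave 104 and 146 for the F test and the cosine, 22 and 0 for the steps from ZT0 and ZT4, and 44 for the course. Leaving out each array in turn gave 209 to 419 for the F test, 320 to 614 for the cosine, 14 to 33 for the departure, then 22 to 42, 0 to 25, 0 to 1, 0 to 25, 0 to 2 and 31 to 75 for the steps, 31 to 94 for ZT0 and 60 to 185 for the course. Of 62 named genes that passed the F test, 47 passed without each array in turn and 25 under every alternative, and 26 did not pass with long-day arrays alone. The 2 arrays per time set the precision, and probe sets near the first quartile give folds that understate a change.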

Other observations

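Some courses belong to none of the groups described so far. Cys1, a gene of the primary cilium, stood at 7.85 and 7.78 at ZT0, 7.80 and 7.76 at ZT4, 7.82 and 8.16 at ZT8, 8.16 and 8.29 at ZT12, 8.43 and 8.59 at ZT16, and 8.62 and 8.65 at ZT20. It was high in all 4 dark-phase arrays and fell by 0.82 ± 0.10 on the log2 scale from ZT20 to ZT0 (limma, adjusted p = 6.94e-06). Its dimmer probe set spanned only 0.10. Tor4a, a torsin ATPase, stood at 9.46 and 9.41 at ZT4 and between 8.51 and 9.12 elsewhere, and rose by 0.75 ± 0.12 from ZT0 to ZT4 (adjusted p = 0.000589). Top2a, a topoisomerase of dividing cells, stood at 7.66 and 7.45 at ZT0 against 6.69 to 7.34, the only one of 17 cell cycle genes to pass the F test (adjusted p = 0.00208, and 0.585 on the mean of its probe sets). Crym, which binds thyroid hormone and marks tanycytes, ran from 8.42 and 8.48 at ZT4 to 7.76 and 7.82 at ZT20 (limma, adjusted p = 0.0106), the only one of 8 tanycyte markers to pass. Crym did not pass without the arrays high in Gh or Prl. Cldn5, a tight junction gene of endothelium, was lowest at ZT12, with 7.78 and 7.46, and was the only one of 11 endothelial markers to pass (adjusted p = 0.00105, and 0.173 with the spread from long-day arrays alone). The lower of these 2 values is that of replicate 2, the array with the highest Prl, and without that array Cldn5 did not pass the F test. For the cell cycle, tanycyte and endothelial lists, the share over all genes to set beside these counts is 1.63%.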
